A study of Mus musculus with 12 samples.

Results

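The genes of the insulin-like growth factor (IGF) system were followed in mouse perigonadal fat: the ligands Igf1 and Igf2, the receptor gene Igf1r, the binding protein genes Igfbp2 to Igfbp7, and Igfals, which encodes the acid-labile subunit. The members were chosen by name, with earlier results of these same arrays known, as every probe set whose platform annotation names 1 of these genes alone. Of the 10 genes, 9 had such a probe set, and the 9 genes had 15 probe sets of the 12422 on the array. Igfbp5 had none, because its probe set also carries the name Tmem119. Since the values themselves played a part in the choice, the members' differences are given as a description.

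The RNA came from female mice aged 6 months and fed ad libitum, with 1 Affymetrix array a mouse and 3 mice in each of 4 groups. The first pair of groups was on the FVB strain and consisted of adipose-specific Glut4 overexpressors, which carry a Glut4 transgene driven by the aP2 promoter, and of littermate controls. The second pair was on a C57B6/FVB/SV129 mix and consisted of adipose-specific Glut4 knockouts and of controls that carry the aP2-Cre transgene. Glut4, encoded by Slc2a4, is the insulin-responsive glucose transporter of fat and muscle. The aP2 promoter is that of the fat cell gene Fabp4 and is also active in some cells other than adipocytes. Each mutant was set only against its own control, because the 2 lines differ in strain and their values rest on different lowest values in the table (21.9 in the overexpressor line and 22.27 in the knockout line), so that no level is compared between lines. The genotype label gives the controls the same entry as the mutants, and the groups were therefore taken from the sample titles.

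IGF1 and IGF2 are small secreted growth factors that act mainly through the IGF1 receptor, a receptor tyrosine kinase close to the insulin receptor. In blood and tissue fluid most of each ligand is held by binding proteins. A ligand bound to IGFBP3 or IGFBP5 can be joined by the acid-labile subunit, and the resulting ternary complex keeps it in the circulation for longer. Liver is the main source of circulating IGF1 and acid-labile subunit, and growth hormone raises both there through the transcription factor STAT5. Adipose tissue also makes Igf1 and several binding proteins, in adipocytes and in stromal cells. In bulk tissue, fewer cells of a type and less RNA per cell cannot be told apart.

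Across the 12 arrays, the median intensity ran between 185.78 and 219.44, and 4.84% to 5.29% of values lay at the lowest value. On the brighter of its 2 probe sets, Slc2a4 itself read 625, 1109.7 and 1042 in the labelled overexpressors. Their controls read 639, 583 and 1212, and these groups overlapped. In the labelled knockouts Slc2a4 read 378, 365 and 363, against 416, 514 and 614 in their controls, which lay above every knockout value. Neither difference passed the limma test (adjusted p = 0.93 and 1). Where this probe set lies relative to the deleted part is not given in the sources used here. Whether it reads the transcript of the transgene was not tested. Adipoq, which encodes the adipocyte hormone adiponectin, read between 5196 and 6986 on all arrays, so the adipose label was borne out.

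Igfals was the member with the largest difference in both lines when each gene is read by its brightest probe set, and it lay in opposite directions in them. It was lower in overexpressor fat and higher in knockout fat than in each line's control fat, with no overlap between mutant and control arrays in either line. The exception in size was 1 of the 3 Igfbp4 probe sets, which differed more in the overexpressor line. Most other members had overlapping mutant and control arrays. No member passed the adjusted threshold of 0.05 in either line.

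Igfals lies on mouse chromosome 17 between Fahd1 and Nubp2, and RefSeq lists 3 transcription start sites for it. The promoter windows of the first and second start are printed because Igfals was the member whose groups separated in both lines, and because they hold the STAT5-type motif TTCNNNGAA, marked in capitals. Both windows run 5′ to 3′ on the plus strand, over 250 bases before and 50 bases after the start, in build GRCm38.p6 (chr17:24877594-24877893 for start 1 and chr17:24877981-24878280 for start 2).

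Igfals start 1: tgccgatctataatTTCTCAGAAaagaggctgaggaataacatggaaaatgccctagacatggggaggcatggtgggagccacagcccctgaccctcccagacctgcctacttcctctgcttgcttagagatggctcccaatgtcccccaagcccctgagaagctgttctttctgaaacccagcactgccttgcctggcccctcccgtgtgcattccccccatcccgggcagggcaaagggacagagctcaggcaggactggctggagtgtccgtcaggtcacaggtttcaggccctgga

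Igfals start 2: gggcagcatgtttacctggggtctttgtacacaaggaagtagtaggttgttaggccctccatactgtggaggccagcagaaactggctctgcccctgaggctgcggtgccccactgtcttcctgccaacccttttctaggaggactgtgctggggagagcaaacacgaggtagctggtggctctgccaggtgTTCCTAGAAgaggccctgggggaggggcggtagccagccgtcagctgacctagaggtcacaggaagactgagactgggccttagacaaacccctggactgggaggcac

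The motif sat 236 to 228 bases before the first start and 58 to 50 bases before the second, and the window of the third start did not hold these letters. It reads the same on both strands and does not overlap the other searched motifs in these windows. Among 16 RefSeq windows of the 10 listed genes, Igfbp5 included, these 2 held it, while 8.3% of all 32851 windows of that length did. The E-box CACGTG was found in 1 of the 16 windows, that of Igfbp2, against 7.15% of all windows. The TATA-type TATAAA, searched on both strands, was found in the windows of Igfbp4 and Igfbp6, against 13.6% of all windows. A match is a run of letters and was not tested as a binding site.

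Igfals values on the brighter of its 2 probe sets (97987_at) were 165, 131 and 132 in overexpressor fat, against 183, 193 and 258 in control fat. Every overexpressor value lay below the lowest control value. The means were 143 ± 19.03 in overexpressors and 211 ± 40.9 in their controls (SD, n = 3 each), a ratio of 0.676. In knockout fat the same probe set read 338, 422 and 333, against 219.6, 172 and 248 in aP2-Cre control fat. All 3 knockout values lay above all 3 control values. The means were 364 ± 50.1 in knockouts and 213 ± 38.6 in their controls (SD, n = 3 each), a ratio of 1.71.

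On the log2 scale, after a constant of 36.92 was added to each intensity, the Igfals difference was -0.46 (SE 0.15) in the overexpressor line and 0.69 (SE 0.15) in the knockout line. The constant makes these differences smaller than the plain ratios. Neither passed limma's test adjusted over 7454 probe sets (adjusted p = 0.814 and 0.367). The difference between both effects was -1.15 (SE 0.21), and it did not pass either (adjusted p = 0.0817). With limma's array weights, which count some arrays more than others, Igfals passed with adjusted p-values of 0.0231 in the overexpressor line, 0.00929 in the knockout line and 0.00172 for the difference between them, but the estimate of the weights did not converge.

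The second Igfals probe set (162450_f_at) was dim and was left out of the test. It read 21.9, 21.9 and 26.45 in overexpressors, against 36.5, 21.9 and 29.7 in their controls, so that 3 of these values lay at the lowest value of the table and have no order. In knockouts it read 76.0, 101 and 89.95, against 45.3, 34.2 and 56.9 in their controls. The knockout arrays again lay above all control arrays, with a ratio of means of 1.96, while the overexpressor arrays overlapped with their controls. Whether this probe set also reads other transcripts was not tested. Fahd1, the neighbour of Igfals on the chromosome, differed by -0.05 in the overexpressor line and 0.01 in the knockout line (log2).

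**Figure D1:**
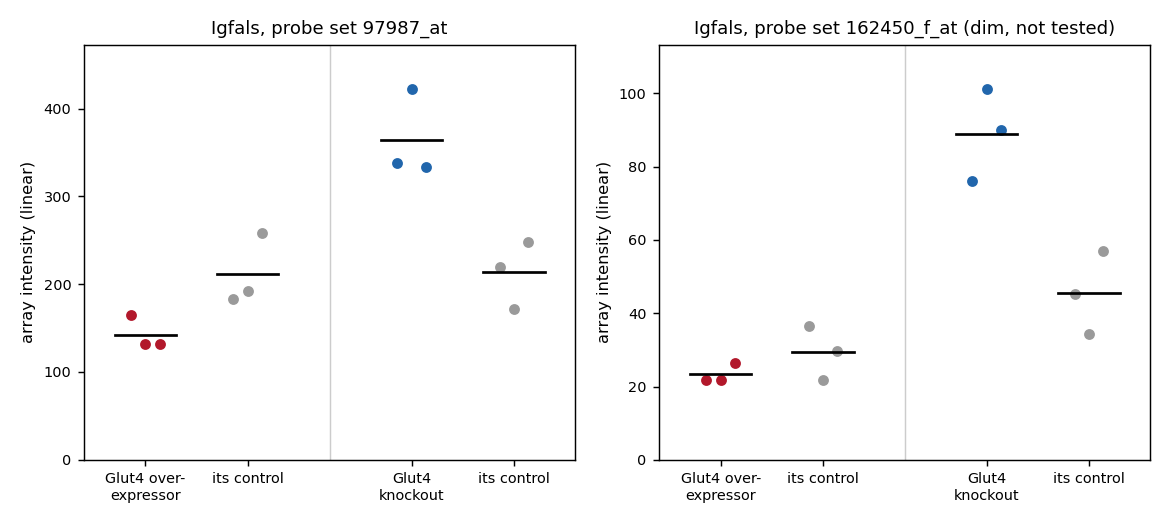
Igfals intensity (linear axis starting at 0) on each array for its 2 probe sets, with a point for each mouse and a bar for the group mean, 3 mice a group. On 97987_at the overexpressors sit between 131 and 165, below their controls at 183 to 258, and the knockouts sit between 333 and 422, above their controls at 172 to 248.

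Of the 13 member probe sets bright enough to be tested, 0 passed the adjusted threshold in the overexpressor line, where 0.0805% of all 7454 tested probe sets did. For the knockout line it was also 0 of 13, where 0.121% of all passed, and for the difference between both effects 0 of 13 passed, where 0.161% of all did. At an unadjusted p under 0.05 there were 2 member probe sets in the overexpressor line, 1 each of Igfbp4 and Igfals, against 4.76% of all tested probe sets. Igfals was the 1 member probe set under it in the knockout line, against 3.98% of all. Mutant and control arrays did not overlap for the same 2 member probe sets in the overexpressor line, both lower, and such a separation was found for 8.8% of all tested probe sets. The members separated in the knockout line were Igfals, higher, and Igf1r, lower, against 7.59% of all. Igfals was the 1 member probe set of 13 whose groups separated in both lines in opposite directions, a pattern that 47 of all 7454 probe sets had (0.631%), 40 of them in the same directions as Igfals.

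In the overexpressor line 3 member probe sets were higher and 10 lower, with a median log2 difference of -0.14, beside a median of -0.07 over all tested probe sets, of which 29.7% were higher. The knockout line had 7 higher and 6 lower, with a median of 0.05, beside 0.04 over all, of which 63.1% were higher. The 7 include Igfbp4 101570_at, which read 41.3 to 76.4 on the knockout-line arrays and was bright enough only through the overexpressor line. That probe set is also among the 13 behind the median and the count of signs that follows. Opposite signs in the 2 lines were found for 8 of 13 member probe sets (61.5%) and for 56% of all.

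**Figure D2:**
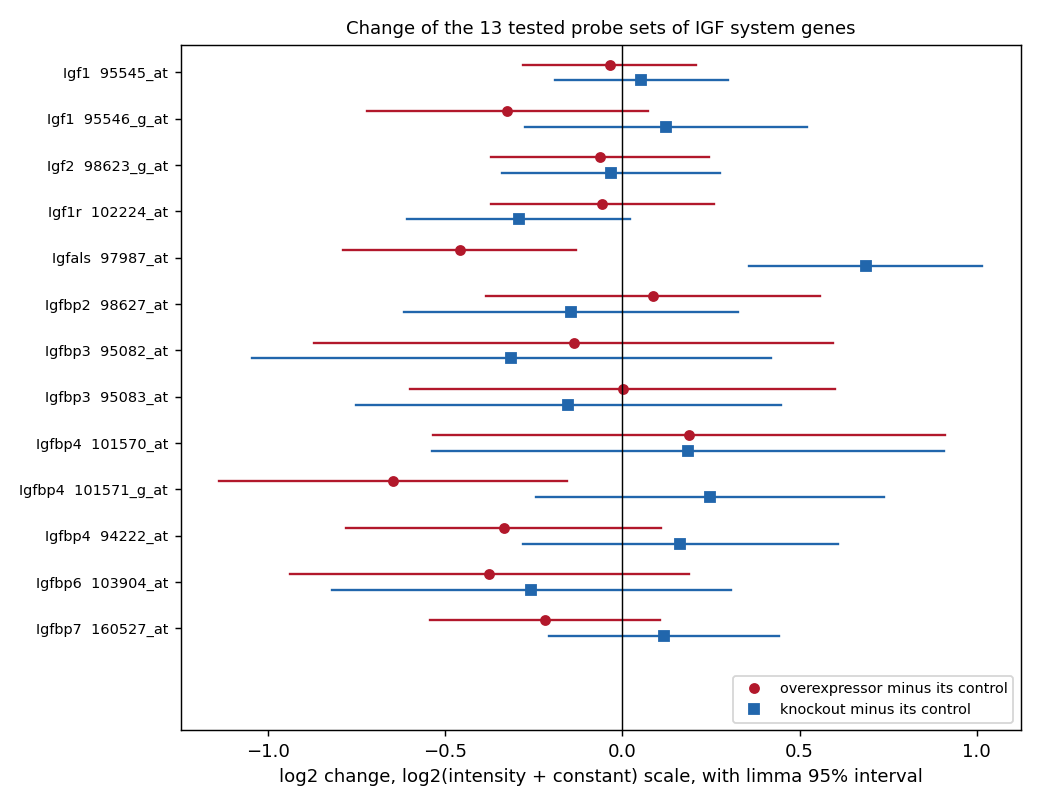
Log2 difference of each of the 13 tested member probe sets (circles, overexpressor minus its control; squares, knockout minus its control), with limma's 95% interval, on the log2(intensity + 36.92) scale. Igfals 97987_at is the probe set with intervals on opposite sides of 0, at -0.46 and 0.69.

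Igf1, the ligand that growth hormone induces, was abundant enough to be tested on both of its probe sets. On the brighter one (95546_g_at), overexpressor fat read 768, 1041 and 1027, against 936, 1478 and 1192.5 in control fat. The lowest overexpressor lay below all controls and the other 2 within the control range, with a log2 difference of -0.32 (SE 0.18, adjusted p = 0.916). Knockout fat read 1241, 1544 and 1516, against 1533, 1292 and 1128 in aP2-Cre control fat, and these groups overlapped with a log2 difference of 0.12 (SE 0.18, adjusted p = 1). The other Igf1 probe set (95545_at) differed by -0.04 (SE 0.11) in the overexpressor line and by 0.05 (SE 0.11) in the knockout line, so the Igf1 probe sets had the same signs but unequal sizes. The limma 95% interval of the brighter one ran between -0.72 and 0.07 in the overexpressor line and between -0.27 and 0.52 in the knockout line. An antisense gene, Igf1os, overlaps Igf1 on chromosome 10.

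Igf2, the fetal growth ligand, lies on chromosome 7 beside Ins2. Its brighter probe set (98623_g_at) read 896, 1026 and 1087 in overexpressors, against 1023, 992 and 1125 in their controls. In knockouts it read 308, 423 and 446, against 374, 450.3 and 372 in their controls. Groups overlapped in both lines, with log2 differences of -0.06 (SE 0.14) and -0.03 (SE 0.14). The sign turned without overexpressor 1 (0.01), without knockout 1 (0.12) and without knockout control 2 (0.05). In the overexpressor line it also turned with quantile normalization within each line (0.0545) and with array weights (0.0415). With array weights the knockout sign turned too (0.0182). The second Igf2 probe set (98622_at) was dim, at 28.8 to 50.8 on all 12 arrays, and was not tested.

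Igf1r, the gene of the receptor that both ligands share, is also on chromosome 7. Overexpressors read 223, 216 and 255, against 265, 267 and 198 in their controls, and the groups overlapped. The log2 difference was -0.06 (SE 0.14), and its sign turned without overexpressor control 1 (0.0026) or 2 (0.008). That sign also turned with array medians subtracted (0.0018) and with quantile normalization within each line (0.0069). Knockouts read 234, 182 and 244.04, against 244.35, 258 and 332 in their controls. The knockout values were all lower, but the nearest mice of the 2 groups differed by less than 1 intensity unit. The log2 difference was -0.29 (SE 0.14) and did not pass (adjusted p = 1). Without knockout control 3, the highest array, it was -0.17.

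**Figure D3:**
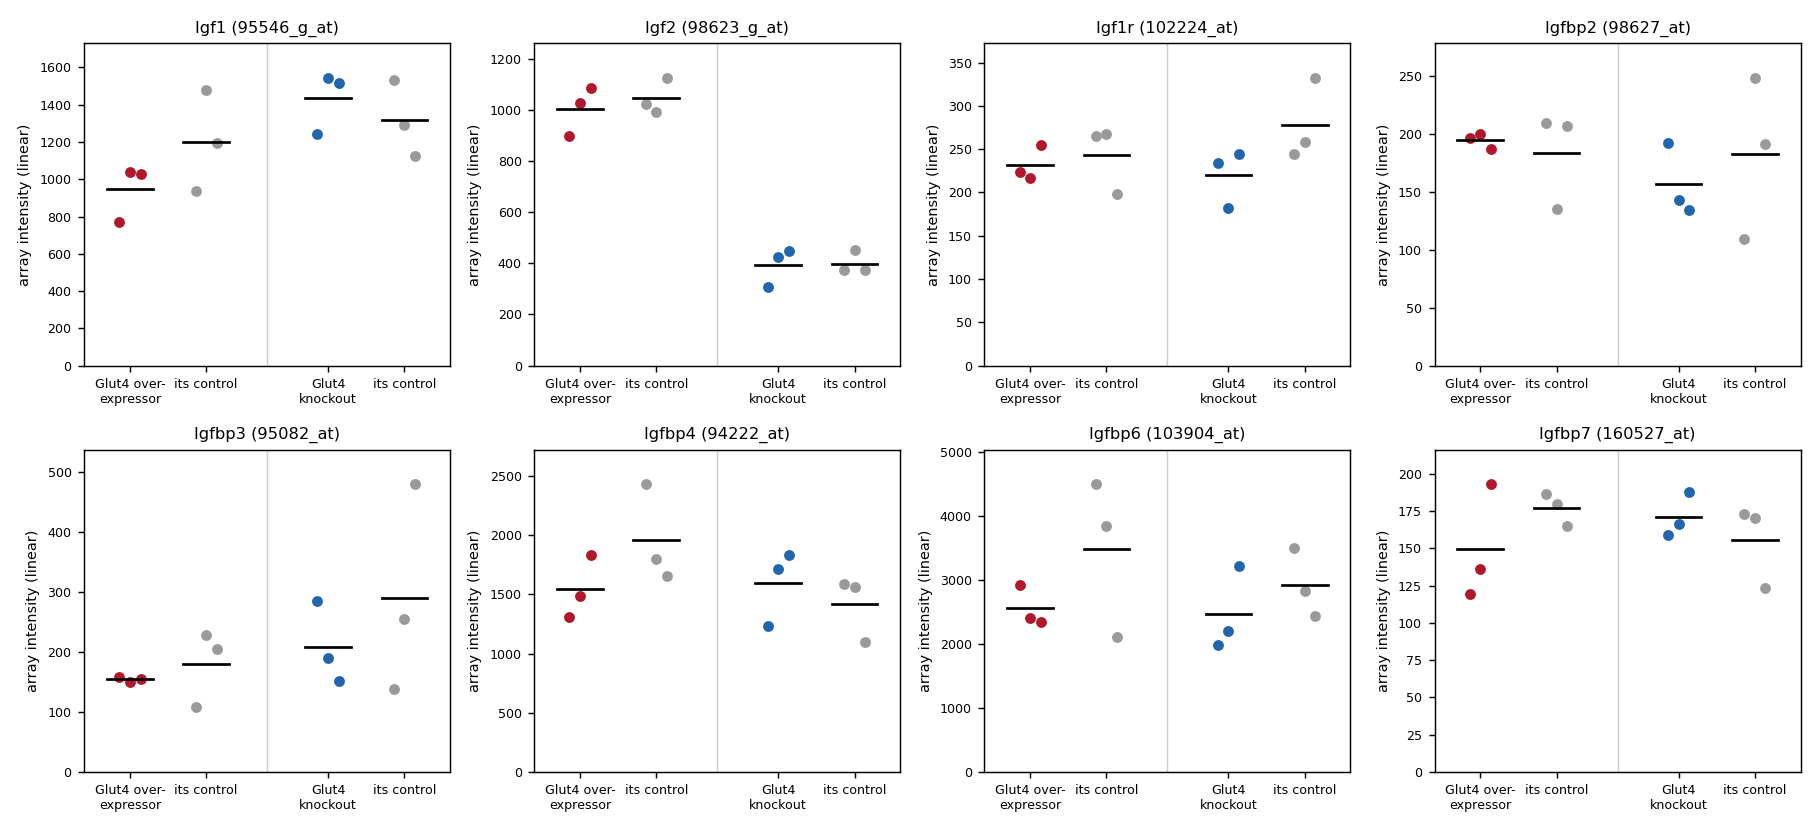
Intensity (linear axes starting at 0) on each array of the brightest probe set of the other 8 member genes, with a point for each mouse and a bar for the group mean, 3 mice a group. Mutant and control points overlap in all panels except for Igf1r in the knockout line, where knockouts reach 244.04 and their controls begin at 244.35.

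Among the binding proteins, Igfbp4 and Igfbp6 had lower means in overexpressor fat on their brightest probe sets, and neither passed. Igfbp4 encodes a binding protein that mostly inhibits IGF action and is cut by the protease PAPP-A. On its brightest probe set (94222_at) overexpressors read 1312, 1487 and 1834, against 2433, 1800.3 and 1659 in their controls, with a log2 difference of -0.33 (SE 0.20, adjusted p = 0.916). The second probe set (101571_g_at) read 974, 928 and 1231 in overexpressors, against 2381, 1487 and 1251 in their controls. On it the groups did not overlap, with a log2 difference of -0.65 (SE 0.23, adjusted p = 0.876), whereas on the brightest they did.

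The third Igfbp4 probe set (101570_at) behaved differently between mice. It read 1543, 4849 and 1585 in overexpressors, against 2377, 1822 and 1846 in their controls. Overexpressor 2 stood apart from the rest there, but not on the other Igfbp4 probe sets. On the knockout-line arrays 101570_at read 63.4, 76.4 and 55.8 in knockouts, against 56.3, 61.4 and 41.3 in their controls, close to the lowest values of the table, while 94222_at read 1232, 1714 and 1835 in knockouts and 1592, 1559.9 and 1101 in their controls. The 3 probe sets thus disagreed in sign in the overexpressor line. The other 2 differed by 0.25 and 0.16 (log2) in the knockout line with overlapping groups, and 101570_at was too dim there to set beside them. For 94222_at the knockout value was -0.0042 without knockout control 3.

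Igfbp6, which encodes a binding protein that prefers IGF2, read 2922, 2408 and 2341 in overexpressors, against 4494, 3836 and 2105 in their controls. The third control was the lowest of all 6 arrays, so the groups overlapped. The log2 difference was -0.38 (SE 0.26, adjusted p = 0.916), and it was -0.70 without overexpressor control 3 and -0.16 without overexpressor control 1. Knockouts read 1981, 2194 and 3208, against 3495, 2825 and 2429 in their controls, with a log2 difference of -0.26 (SE 0.26) and overlapping groups. Without knockout 1 the difference was -0.12.

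Igfbp3, the main carrier of IGFs in blood and a partner of the acid-labile subunit, had the largest standard error of the 13 member probe sets. Its brighter probe set (95082_at) read 158, 149 and 156 in overexpressors, against 108, 229 and 205 in their controls. In knockouts it read 285, 190.0 and 152, against 138, 255 and 481 in their controls. The overexpressors lay close together inside the wide control range, and the 481 of knockout control 3 was the highest value on the 12 arrays. The log2 differences were -0.14 (SE 0.34) and -0.31 (SE 0.34), and they were 0.03 without overexpressor control 2 and 0.09 without knockout control 3. With array weights the knockout difference was 0.0023. The dimmer probe set (95083_at) differed by 0.001 (SE 0.28) in the overexpressor line and -0.15 (SE 0.28) in the knockout line, and knockout control 3 was again the highest array on it, at 318. Igfbp3 thus did not show the opposite directions seen for Igfals, its partner in the ternary complex.

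Igfbp2, which encodes a circulating binding protein and lies beside Igfbp5 on chromosome 1, read 197, 200.5 and 187 in overexpressors, against 209, 136 and 207 in their controls. Knockouts read 192, 143 and 134, against 109.6, 249 and 191 in their controls. The control ranges enclosed every mutant value in both lines, and the log2 differences of 0.09 (SE 0.22) and -0.14 (SE 0.22) turned sign without overexpressor control 2 (-0.08) and without knockout control 2 (0.07).

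Igfbp7 encodes a related secreted protein with low affinity for IGFs that is abundant in vessel walls. It read 119, 136 and 193 in overexpressors, against 186, 179.8 and 165 in their controls, and 159, 166 and 188 in knockouts, against 173, 170.35 and 123 in their controls. Overexpressor 3 lay above every control in that line, and the knockout groups overlapped. The log2 differences were -0.22 (SE 0.15) and 0.12 (SE 0.15), the second being -0.0084 without knockout control 3. Igfbp7 overlaps Polr2b on chromosome 5. The probe set that names Igfbp5 together with Tmem119 (100566_at) read 2562, 3146 and 2919 in overexpressors, against 3638, 3278 and 2645 in their controls, and 2724, 2939 and 3468 in knockouts, against 3273, 3067 and 2204 in their controls. These groups overlapped, and the signal cannot be assigned to either gene.

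The other genes of the pathway were read from 5 lists. Over these lists 26 genes had a probe set bright enough to be tested. In the overexpressor line 8 were higher and 18 lower, with a median of -0.10, and in the knockout line 10 were higher and 16 lower, with a median of -0.01. None of the 26 passed the adjusted limma threshold in either line, and at an unadjusted p under 0.05 there was 1 in the overexpressor line and 2 in the knockout line, beside 4.76% and 3.98% of all tested probe sets.

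The growth hormone axis, upstream of Igf1 and Igfals in liver, had 7 of its 10 genes tested, with 3 higher and 4 lower in the overexpressor line and 1 higher and 6 lower in the knockout line. Ghr, the growth hormone receptor, differed by 0.07 (SE 0.15) and -0.03 (SE 0.15). Cish, a STAT5-induced inhibitor of cytokine signalling, read 649, 650.1 and 663 in knockouts, against 811, 754 and 748 in their controls. The knockout arrays were all lower, with a log2 difference of -0.22 (SE 0.10, adjusted p = 1), while Igfals in the same mice was higher. In the overexpressor line Cish overlapped between groups, at 190.0, 202 and 202 against 162, 198 and 212. Socs1, a further inhibitor of this family, differed by 0.07 (SE 0.11) and -0.21 (SE 0.11). Socs2, another STAT5-induced inhibitor, ranged between 129 and 531 within the knockout line, with a log2 difference of -0.27 (SE 0.46).

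Of the genes of other receptors and of IGF mRNA binding, 3 were tested. Igf2r, the receptor that clears IGF2, differed by -0.12 (SE 0.13) and -0.05 (SE 0.13). Igfbp1, the insulin-repressed binding protein of liver, differed by 0.04 (SE 0.12) and -0.12 (SE 0.12). Insr, the insulin receptor gene, was dim and was not tested.

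Proteases and inhibitors that act on the binding proteins had 4 genes tested, with 1 higher and 3 lower in each line. Of the 4 left out as dim, Stc2, whose product inhibits PAPP-A, separated in both lines with directions opposite to those of Igfals. It read 109, 108 and 111 in overexpressors, against 76.5, 91.2 and 80.2 in their controls, and 129.8, 112 and 124 in knockouts, against 141, 152 and 140.3 in their controls. Among the tested ones, Plat, the tissue plasminogen activator, differed by -0.15 (SE 0.14) and -0.16 (SE 0.14). Ctsd, a lysosomal protease, read 3881, 4183 and 4031 in overexpressors, against 3785, 3451 and 3801 in their controls. The overexpressor arrays lay above the controls, with a log2 difference of 0.13 (SE 0.10), and in the knockout line it was 0.15 (SE 0.10) with overlap. Htra1, a secreted protease with an IGFBP-like domain, differed by -0.18 (SE 0.14) and -0.01 (SE 0.14).

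Receptor signalling had 8 genes tested. Akt2, the kinase downstream of the insulin and IGF1 receptors in fat, read 954, 1105 and 1431 in knockouts, against 765, 936 and 732 in their controls. All knockout arrays lay above all controls, with a log2 difference of 0.49 (SE 0.19, adjusted p = 1). In the overexpressor line Akt2 differed by -0.38 (SE 0.19, adjusted p = 0.916), with overlap. Pik3ca, a catalytic subunit of phosphoinositide 3-kinase, differed by 0.30 (SE 0.12, adjusted p = 0.916) in the overexpressor line, where the groups did not overlap. In the knockout line Pik3ca differed by 0.16 (SE 0.12).

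Genes whose products carry an IGFBP-like domain had 5 members tested, all 5 lower in the overexpressor line, where 29.7% of all tested probe sets were higher, and none past the adjusted threshold. Ccn2, a matricellular protein of fibroblasts, read 194, 178 and 211 in overexpressors, against 481, 399.7 and 178 in their controls, with a log2 difference of -0.66 (SE 0.36, adjusted p = 0.916). Overexpressor control 3 was the lowest control for Ccn2, as it was for Igfbp6, and the Ccn2 groups overlapped. Ccn3, of the same family, was separated at 227 to 262 in overexpressors, against 275 to 317 in their controls (log2 difference -0.23, SE 0.11, adjusted p = 0.916). The other 4 genes of this list with a probe set were left out as dim over all arrays, and on the log2 scale none of them was lower. Ccn5, a relative of Ccn2, read 246, 341 and 312 in overexpressors, against 133, 131 and 142 in their controls, a ratio of means of 2.21 with no overlap. It lay at 22.27 to 47.6 on the knockout-line arrays. Htra3, a protease related to Htra1, was also higher without overlap in overexpressors (ratio 1.40). Ccn4 and Ccn1 overlapped, with ratios of means of 1.07 and 0.949.

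Markers of cell types were also read as lists. Stromal fibroblast genes were lower in overexpressor fat for 11 of 12, with a median of -0.42 (29.7% of all tested probe sets were higher there). Their summed level was 22647 to 27947 in overexpressors, against 26064 to 39382 in their controls. The lowest control sum was that of overexpressor control 3 and lay inside the overexpressor range. For the knockout line the sums were 21767 to 30045 in knockouts, against 24997 to 32243 in their controls, with a median of -0.11. None of the 12 passed limma's adjusted threshold in either line, with 7 at an unadjusted p under 0.05 in the overexpressor line and 0 in the knockout line (4.76% and 3.98% of all tested probe sets). The part of stromal cells in the Igfbp4 and Igfbp6 values was not tested. The 8 tested adipocyte genes summed to 23863 to 30909 in overexpressors, against 25833 to 29809 in their controls, and to 26345 to 29471 in knockouts, against 26125 to 27617 in their controls. Of them, 5 were higher and 3 lower in the overexpressor line (median 0.04), and 6 higher and 2 lower in the knockout line (0.05). Cidec differed most in the overexpressor line, by -0.77 (SE 0.18, limma adjusted p = 0.304) without overlap, and by 0.25 (SE 0.18) in the knockout line with overlap. Endothelial genes were lower in the overexpressor line for 8 of 8 (median -0.27), mesothelial genes for 5 of 5 (-0.24), macrophage genes for 6 of 7 (-0.27) and smooth muscle and pericyte genes for 6 of 7 (-0.37). Their medians in the knockout line were 0.03, -0.13, 0.04 and -0.32. At an unadjusted limma p under 0.05 these 4 lists had 2, 0, 1 and 3 genes in the overexpressor line. In the knockout line they had 0, 0, 0 and 1. Mmp12, the macrophage gene that was higher in overexpressors, read 179, 134 and 187, against 83.0, 48.5 and 57.2 in their controls. Its log2 difference was 1.03 (SE 0.18, limma adjusted p = 0.0782), and -0.14 (SE 0.18) in the knockout line. Rgs5, the smooth muscle and pericyte gene that was higher in overexpressors, differed by 0.08 (SE 0.19). B cell and gonadal genes had medians of -0.17 and 0.006 in the overexpressor line, and of -0.0036 and -0.04 in the knockout line. Ighm, the immunoglobulin heavy chain gene of B cells, read 1636, 2356 and 1742 in knockouts, against 842, 602 and 658 in their controls. It was the 1 gene of these marker lists that passed in either line (log2 difference 1.40, SE 0.20, limma adjusted p = 0.0155), and its part in the Igfals values of the same mice was not tested. The other tested B cell genes did not share this difference. In the knockout line Cd79b differed by -0.11 (SE 0.18), Ms4a1 by -0.16 (SE 0.19) and Cd22 by 0.10 (SE 0.13), with overlapping groups.

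Liver genes were listed because liver makes most acid-labile subunit. Alb, the albumin gene, read 224, 191 and 149.7 in overexpressors, against 297, 239.5 and 317 in their controls. It was lower on all 3 overexpressor arrays, with a log2 difference of -0.52 (SE 0.13, adjusted p = 0.457), and in knockouts it read 202, 219 and 188, against 181, 183 and 185 in their controls, with a difference of 0.13 (SE 0.13, adjusted p = 1) and no overlap. Alb thus lay in the same directions as Igfals. Among the other liver genes tested, Apoa1 differed by -0.01 and -0.04 and Tat by -0.19 and 0.10. Ttr differed by -0.07 in the knockout line, and in the overexpressor line it read 32.3 to 73.3, too near the lowest values of the table to show a difference. The summed level of all 6 was 1858 to 2056 in overexpressors, against 2047 to 2186 in their controls, and 1941 to 2024 in knockouts, against 1808 to 2278 in their controls. Apoa2 lay at the lowest value of the table on all knockout-line arrays. What part other tissue has in the Igfals values was not tested.

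**Figure D4:**
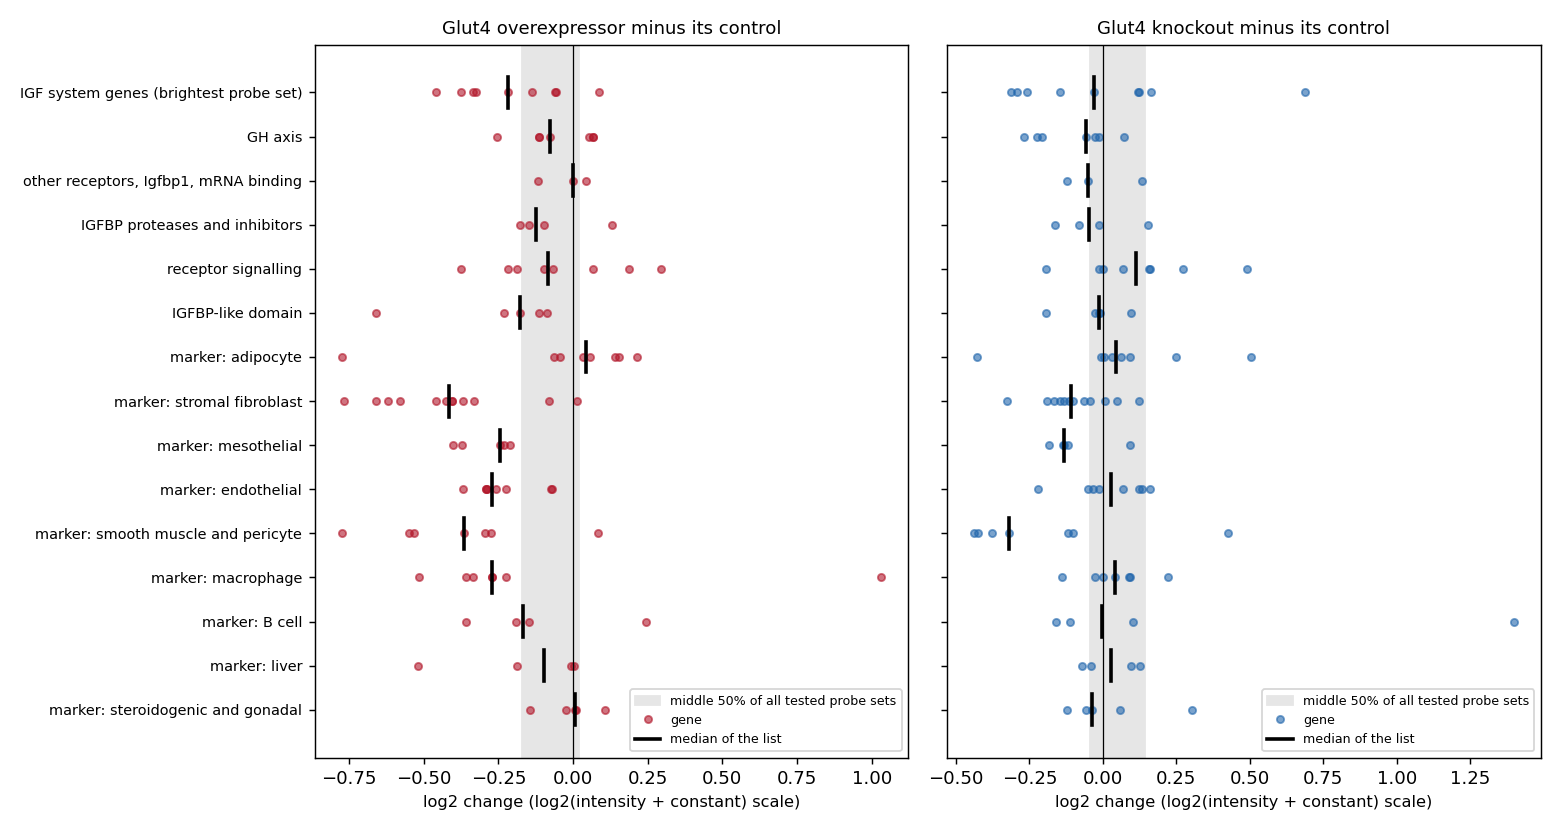
Log2 difference of each tested gene in the IGF system, in 5 pathway lists and in 9 marker lists, with overexpressor minus its control on the left and knockout minus its control on the right. Black bars are list medians and the grey band holds the middle 50% of all tested probe sets; the stromal fibroblast median is -0.42 on the left and -0.11 on the right.

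The genes whose pattern over the 12 arrays was most like that of a member were found by Pearson's r after each line's mean was subtracted, among 5697 tested genes. For Igfals these were Cops7b (r = 0.919), Serpina1e (0.856), Ptprk (0.849), Unc119 (0.82) and Lhx6 (0.807). The probe set named for Serpina1e, which encodes an alpha-1 antitrypsin, was higher in knockout fat by 2.08 on the log2 scale. It passed the limma threshold there (adjusted p = 0.00314). In the overexpressor line it differed by -0.34 (limma adjusted p = 0.916). Whether this probe set also reads other transcripts was not tested, so its signal is not assigned to Serpina1e alone. For Igf1 the most similar genes were Asns (0.924), Akap12 (0.907), H3c14 (0.889), Ldah (0.877) and Plin4 (0.874). Ldah and Plin4 encode proteins of lipid droplets. The 5 differed by -0.16 to -0.56 in the overexpressor line and by 0.12 to 0.34 in the knockout line, none past the threshold. Because r keeps the group differences, the search favoured genes with the directions of Igf1 or Igfals, so their signs are no separate result. How high r runs by chance among 5697 genes over 12 arrays was not tested.

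Among the members themselves, Igfbp4 and Igfbp7 had the most similar patterns over the 12 arrays (r = 0.859), and Igf1 was closest to Igfbp7 (0.618). Igfals had r = 0.33 with Igf1 and 0.001 with Igfbp3. Igfbp3 and Igfbp4 ran opposite to each other (-0.676), as did Igf1 and Igfbp2 (-0.635). These correlations describe 12 arrays that share the group differences and the array-wide level, and they carry no test.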

How the data were processed

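Total RNA of 12 mice was measured on 12 Affymetrix arrays, and the authors deposited 1 table of linear intensity values for 12422 probe sets. Their summarisation was not given in the sources used here. With 3 arrays a group, precision is limited. Genes were named through the platform annotation: 10833 probe sets had 1 symbol, 396 several and 1193 none, and 10817 matched RefSeq by gene ID. Array medians spanned 0.20 on the log2 scale, so the values were not normalized again. The main test used log2(intensity + 36.92), the constant being the table's 10th percentile. The 4968 probe sets with the lowest means, 40%, were left out, and 7454 were tested with limma 3.58.1 in R 4.3.3 (4 group means over all 12 arrays, eBayes with trend, Benjamini-Hochberg adjustment, threshold 0.05). The test was checked on simulated data. Other constants, filters, normalizations, array weights, a replicate block, each line alone and leaving out each array were tried. P-values rest on the spread between mice within groups, pooled over all 4 groups and moderated by intensity. The standard error of a probe set is therefore the same in both lines and does not measure the spread of 1 group.

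Members and lists were chosen with earlier results of these data known. The named genes are all members, up to 3 genes of each pathway list with the smallest p in a comparison, and the 5 genes most like Igf1 and Igfals. Ghr, Socs2, Insr, Stc2, Ccn1, Ccn4, Ccn5, Htra3 and the marker genes were named beyond this rule, after their values were seen. For each gene the brightest probe set stands. Promoters are RefSeq's, GRCm38.p6.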

Additional observations from a re-analysis of the deposited data

How the results depend on the processing

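Member calls stayed at 0 under every alternative other than limma's array weights. With array weights, which did not converge, 3 member probe sets passed in the overexpressor line (1 each of Igfbp4, Igfbp6 and Igfals, among 411 overall), 1 in the knockout line (Igfals, among 15) and 1 for the difference between both effects (Igfals, among 44). The weights lay between 0.329 and 4.598. The members' median in the overexpressor line was -0.32 when the dimmest 60% were dropped, where 7 member probe sets were tested and Igfals was not, -0.079 with array medians subtracted and -0.0869 with quantile normalization within each line. Without each array in turn it lay between -0.18 and -0.10, and in the knockout line between 0.02 and 0.12. The knockout-line median, 0.0536, was 0.0166 with array medians subtracted and turned to -0.0124 with quantile normalization. Igfals lay at -0.55 to -0.33 in the overexpressor line and 0.56 to 0.83 in the knockout line, over 20 alternatives that gave a value for each. Its sign could not turn when 1 array was left out, because mutant and control arrays did not overlap. Leaving out an array of the other line, dropping the filter, the replicate block and each line alone left the difference unchanged. The adjusted p of Igfals lay between 0.0231 and 1 in the overexpressor line, 0.00929 and 1 in the knockout line, and 0.00172 and 0.493 for the difference. Deviations of same-numbered arrays from their group means had correlations of -0.362 to 0.019. With 3 arrays a group, these cannot show whether the replicate numbers pair mice, and the main test paired none. With a replicate block, 0 member probe sets passed, and 5, 0 and 1 passed overall in the overexpressor line, the knockout line and the difference, against 6, 9 and 12 without it. The causes were not tested. The Igf2 and Igfals repeats are limited by being dim. The Igf2 repeat, and the Igfals repeat in the overexpressor line, lay near the table's lowest values.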
